A study of Mus musculus with 36 samples.

Results

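The 8 genes described here are 7 cyclin-dependent kinase inhibitors and *Trp53*, taken by name out of 21143 autosomal genes that carry an Entrez identifier in the GENCODE annotation of mm10. They comprise the 4 INK4 genes *Cdkn2a*, *Cdkn2b*, *Cdkn2c* and *Cdkn2d*, the 3 CIP/KIP genes *Cdkn1a*, *Cdkn1b* and *Cdkn1c*, and *Trp53*. For each mouse, ChIP-Seq peaks of trimethylated histone H3 lysine 4 (K4me3) and lysine 27 (K27me3) were located within 3 kb of every annotated transcription start site (TSS), and the length of K27me3 over each locus was measured. The lists came from whole pancreas of 12 mice, with 3 mice per genotype and a list of each mark per mouse.

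All 12 mice received tamoxifen by oral gavage, were 2 to 4 months old, and gave tissue at day 22. WT mice are labelled Wildtype, which per the study's methods are either C57BL/6 mice or mice carrying the Mist1creERT allele alone, and the labels do not say which. EZ mice were Mist1creERT/+EZH2[delta]SET. The groups labelled KR and KE both carried Mist1creERT/+ and a further allele that is not reported here, and KE mice also carried Ezh2[delta]SET, so that by their labels KE and KR differ by the Ezh2 deletion within that background. The 3 mutant genotypes therefore share a Mist1creERT allele, an inducible Cre driven from *Mist1* (*Bhlha15*) that acts in acinar cells. The SET domain of EZH2, the methyltransferase of PRC2, is deleted only in cells where that Cre has acted, whereas the chromatin came from every cell type of the pancreas. A change in the acinar share of the tissue and a change of a mark within acinar cells cannot be told apart in such tissue, and the peaks hold no measure of the *Ezh2* deletion itself. K4me3 lay near a start of 10 of 10 acinar markers in all 12 mice (among them *Ptf1a*, *Bhlha15* and *Cpa1*), of 5 of 6 duct markers, 2 of 8 endocrine, 1 of 6 leukocyte and 3 of 7 stromal and vessel markers, and of 0 of 5 markers of other organs. Over all autosomal genes the share with K4me3 near a start in all 12 mice was 57.5%.

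The INK4 proteins bind CDK4 and CDK6 and keep them from phosphorylating the retinoblastoma protein, which then holds E2F factors in check and stops cells before S phase. *Cdkn2a* encodes a pair of unrelated proteins from separate first exons: p16Ink4a, an INK4 inhibitor, and p19Arf, which binds MDM2 and so stabilises p53. *Cdkn2b* beside it encodes p15Ink4b. The CIP/KIP proteins p21 (*Cdkn1a*), p27 (*Cdkn1b*) and p57 (*Cdkn1c*) bind a wider range of cyclin-kinase complexes, and p21 is a classic target of p53. The *Cdkn2a*-*Cdkn2b* locus is a textbook target of Polycomb, in which PRC2 deposits K27me3, and its silencing or loss is common in pancreatic cancer. K4me3 marks the starts of active or poised genes.

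The K27me3 lists held 21420 to 31274 peaks and the K4me3 lists 17400 to 26081. WT replicate 2 stood apart: 11.7% of its autosomal K27me3 peaks overlapped a K4me3 peak of the same mouse, against 0.693% to 4.39% in the other 11 mice, and it had the fewest peaks of both marks. K27me3 peaks on chromosome X numbered 10 to 35 in the 3 KR mice and 17 in EZ replicate 2, against 5637 to 7367 in the other 8 mice, which include all 3 KE mice (5862 to 7272). KE and KR thus also differ in this trait of the lists, which enters every comparison of the Ezh2 SET deletion through that pair and cannot be told apart from the deletion there. All 8 genes are autosomal. The peak lists give neither read depth nor signal, so each value below is a presence or a covered length, and depth is unknown.

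The 200 bases just upstream are shown for the starts of the *Cdkn2a*-*Cdkn2b* locus, the upstream start of *Cdkn1a* and the *Cdkn1b* start. These starts differ in their marks and in their base content. They were picked from 8 starts measured, and a link between base content and marks was not tested. The bases are from RefSeq promoters on GRCm38.p6, the assembly of mm10, written 5′ to 3′ on the strand of the gene, with CpG dinucleotides in capitals. The Ink4a start (chr4:89282193-89282392, minus strand) lies in the first intron of the longer *Cdkn2a* transcript, the Arf start (chr4:89294654-89294853, minus strand) lies 12.5 kb further upstream, and the *Cdkn2b* start (chr4:89311040-89311239, minus strand) another 16.4 kb beyond that. The upstream *Cdkn1a* start (chr17:29090776-29090975, plus strand) belongs to 2 of its 5 transcripts, and the *Cdkn1b* start (chr6:134920201-134920400, plus strand) to all 3 of its transcripts, where transcript starts up to 500 bp apart are counted as 1 start.
Cdkn2a, Ink4a start: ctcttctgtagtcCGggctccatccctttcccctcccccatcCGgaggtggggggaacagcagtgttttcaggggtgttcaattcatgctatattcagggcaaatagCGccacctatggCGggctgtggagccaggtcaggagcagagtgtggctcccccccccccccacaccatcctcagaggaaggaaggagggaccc
Cdkn2a, Arf start: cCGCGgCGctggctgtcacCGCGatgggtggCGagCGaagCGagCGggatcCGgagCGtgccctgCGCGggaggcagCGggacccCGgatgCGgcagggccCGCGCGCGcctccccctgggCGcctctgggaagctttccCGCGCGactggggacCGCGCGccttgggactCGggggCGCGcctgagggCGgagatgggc
Cdkn2b start: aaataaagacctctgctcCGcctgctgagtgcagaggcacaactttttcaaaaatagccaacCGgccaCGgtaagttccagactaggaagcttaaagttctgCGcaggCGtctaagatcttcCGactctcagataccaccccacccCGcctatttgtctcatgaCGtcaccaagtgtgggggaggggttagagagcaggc
Cdkn1a, upstream start: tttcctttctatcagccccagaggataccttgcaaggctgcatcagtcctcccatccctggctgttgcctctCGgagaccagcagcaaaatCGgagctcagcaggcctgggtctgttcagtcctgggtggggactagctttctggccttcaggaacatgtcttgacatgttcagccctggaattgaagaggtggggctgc
Cdkn1b start: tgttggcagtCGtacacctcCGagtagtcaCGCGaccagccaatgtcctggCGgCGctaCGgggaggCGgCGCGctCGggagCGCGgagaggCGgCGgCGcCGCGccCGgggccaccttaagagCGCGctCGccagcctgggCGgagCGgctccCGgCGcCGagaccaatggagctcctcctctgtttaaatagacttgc

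The Arf sequence held 31 CpG and the *Cdkn1b* sequence 27, counts that 2.12% and 4.54% of 32843 RefSeq promoters of the same length reached. The Ink4a sequence held 4 CpG, the *Cdkn2b* sequence 8 and the upstream *Cdkn1a* sequence 2, and the median of all promoters was 5. Of the measured starts not shown, *Cdkn2c* (chr4:109665372) held 6 CpG, *Trp53* (chr11:69580359) 7 and *Cdkn1a* at chr17:29093769 held 17. Each of these lay inside K4me3 in 12 of 12 mice and had K27me3 within 3 kb in 0 of 12. GC content was 78.5% at Arf and 61.0% at Ink4a. The 4 motifs below were searched on both strands. The GC box GGGCGG occurred 1 time at Arf, 1 time at *Cdkn1b* and 2 times at *Cdkn1a* chr17:29093769, and was in 31.1% of all promoters. The CCAAT box CCAAT occurred 2 times at *Cdkn1b* and at none of the other 4 starts shown, and was in 29.4% of all promoters. An E2F motif (TTTGGCGC or TTTCCCGC) occurred 1 time at Arf and in 1.11% of all promoters. TATAAA was in none of the 5 sequences and in 9.96% of all promoters. These are matches of letters and not measured binding sites. RefSeq promoters were given for 7 of the 8 genes, without *Cdkn1c*, and 6 of these genes had one within 50 bp of a GENCODE start and were measured, without *Cdkn2d*.

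K27me3 near a start was found at 2 of the 8 genes, *Cdkn2a* and *Cdkn2b*, and K4me3 at all 8. *Cdkn2a* had K27me3 within 3 kb of a start in 12 of 12 mice, and *Cdkn2b* in 11 of 12. In WT replicate 1 the nearest K27me3 ended 4344 bp from the *Cdkn2b* start. *Cdkn2c*, *Cdkn2d*, *Cdkn1a*, *Cdkn1b*, *Cdkn1c* and *Trp53* each had it in 0 of 12 mice. Counted as K27me3 in all 3 mice of a genotype, 1 of the 8 genes passed in WT and 2 in each of EZ, KR and KE, where 4.32%, 7.75%, 8.83% and 7.3% of all autosomal genes did. In all 12 mice, 1 of 8 genes (*Cdkn2a*) passed, against 3.25% of all genes. K4me3 lay near a start in all 3 mice for 7 of 8 genes in each genotype, against 58.6% of all genes in WT, 61.7% in EZ, 60.7% in KR and 60.7% in KE. In all 12 mice 7 of 8 passed against 57.5%, the exception being *Cdkn1c*. Both marks in all 12 mice were found at 1 of 8 genes, *Cdkn2a*, and at 0.525% of all genes. With so few genes in the family these shares are a description, and their difference from the background was not tested. Widening the upstream side of the window to 100 kb added K27me3 at *Trp53* in 1 WT mouse, WT replicate 2, the library that stood apart, and at none of the other 5 genes.

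Within *Cdkn2a* the marks divided between the 2 starts. The Ink4a start lay inside K27me3 in 12 of 12 mice and had no K4me3 within 3 kb in any of them, the nearest K4me3 being 12061 to 12393 bp away. The Arf start lay inside a K4me3 peak in 12 of 12 mice, with peak widths of 779 to 1712 bp. It also lay inside K27me3 in 8 of 12 mice, namely 1 WT, 3 EZ, 2 KR and 2 KE. The 1 WT mouse inside K27me3 at this start was WT replicate 2, the library that stood apart, and without it the WT count is 0 of 2. In the other 4 mice the K27me3 edge stopped 83 to 195 bp short of it. The *Cdkn2b* start was inside K4me3 in 12 of 12 mice, with widths of 1407 to 1819 bp, and inside K27me3 in 5 of 12 (1 WT, 2 EZ, 1 KR, 1 KE), where the WT mouse was again replicate 2 and the count without it is 0 of 2. The gene-level call of both marks at *Cdkn2a* thus rested on the Arf start, and the start of p16Ink4a carried K27me3 alone in every mouse. Marks on the same bases of a tissue sample can come from different cells or alleles, which peak lists do not separate.

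The break in K27me3 at Arf overlapped the K4me3 peak, wholly or in part. In 6 mice (WT replicates 1 and 3, EZ replicate 1, KR replicates 2 and 3, KE replicate 3) K27me3 was interrupted within 3 kb of the Arf start by a gap of 170 to 2840 bp, and 36.1% to 100% of that gap was covered by the K4me3 peak. In the other 6 mice K27me3 ran through without a gap. Gaps were seen in 2 WT, 1 EZ, 2 KR and 1 KE mice, and the 1 WT mouse without a gap was WT replicate 2, the library that stood apart. EZ, KR and KE each held mice of both kinds. K27me3 and K4me3 overlapped at Arf by 35 to 1712 bp, with a median of 994.5 bp.

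**Figure D1:**
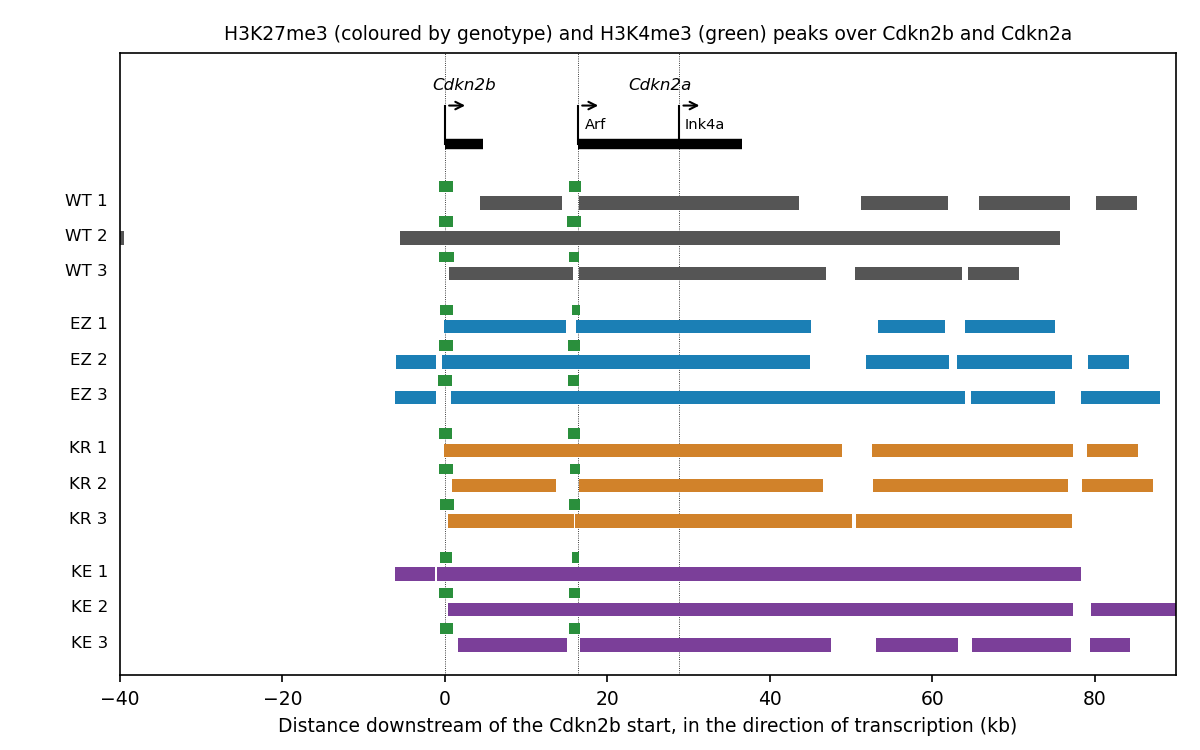
H3K27me3 peaks (bars coloured by genotype) and H3K4me3 peaks (green) over Cdkn2b and Cdkn2a, 1 row per mouse, plotted by distance in kb from the Cdkn2b start with transcription running left to right. The K27me3 covers 99.03% to 100% of Cdkn2a in every row, has its edge within 1619 bp of the Cdkn2b start in all rows but WT 1, where it stops 4344 bp short, and WT 2, where it runs 5480 bp past, with a separate peak further upstream in EZ 2, EZ 3 and KE 1, and the K4me3 peaks sit at the Cdkn2b and Arf starts but not at Ink4a.

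K27me3 stretched over both genes as a broad domain. When gaps of up to 3 kb were joined, a single domain spanned *Cdkn2a* and reached *Cdkn2b* in all 12 mice, with extents of 39.3 to 89.6 kb and a median of 50.01 kb. In WT it measured 39.3, 81.2 and 46.4 kb, in EZ 45.2, 51.0 and 81.2 kb, in KR 49.1, 45.7 and 76.7 kb, and in KE 84.5, 89.6 and 46.0 kb. Thus 5 mice (WT replicate 2, EZ replicate 3, KR replicate 3, KE replicates 1 and 2) had domains of 76.7 kb or more and the other 7 had domains of 51.0 kb or less, with both lengths in EZ, KR and KE. In WT the only long domain was that of WT replicate 2, the library that stood apart. The extents depended on the joining: with gaps of up to 10 kb joined they were 70.1 to 94.2 kb, with a median of 83.6 kb. Among all joined autosomal domains, whose median extent was 6.77 to 8.53 kb per mouse, 0.216% to 1.28% were at least as long as the one at *Cdkn2a*.

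The domain was asymmetric. The *Cdkn2a* span was covered by K27me3 for 99.03% to 100% of its length in the 12 mice. The 50 kb downstream of *Cdkn2a* were covered for 55.7% to 95.5%, with a median of 79.3%. The *Cdkn2b* span was covered for 8.37% to 100%, with a median of 91.9% and the lowest value in WT replicate 1. The 50 kb upstream of the *Cdkn2b* start were covered for 0% to 26.4%, with a median of 0.149% and the highest value in WT replicate 2. K27me3 therefore ended near the *Cdkn2b* start in most mice. Leaving out WT replicate 1, where it ended earlier, and WT replicate 2, where it ran 5480 bp past, the edge lay between 1619 bp short of the start (KE replicate 3) and 1032 bp past it (KE replicate 1). Of those 10 mice it fell short in 6 and ran past in 4. In EZ replicates 2 and 3 and KE replicate 1 a further K27me3 peak, of the narrowest width in the lists (5001 bp), began 1064, 1123 and 1162 bp upstream of the *Cdkn2b* start, on the far side of the K4me3 peak.

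**Figure D2:**
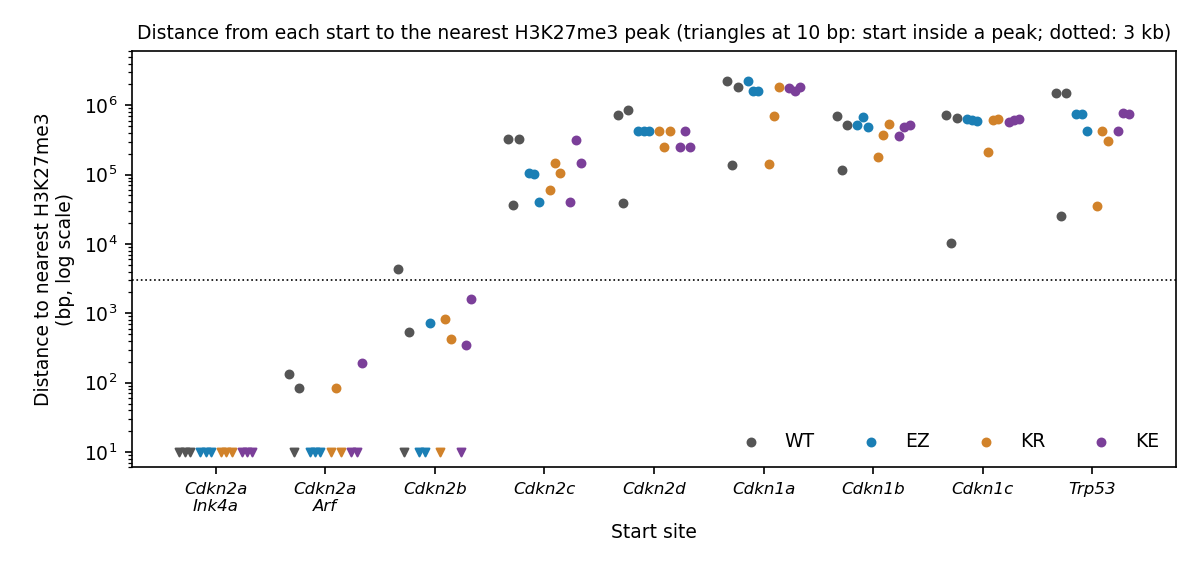
Distance in bp (log scale) from 9 start sites to the nearest H3K27me3 peak, 1 symbol per mouse coloured by genotype, with triangles drawn at 10 bp where the start lay inside a peak and a dotted line at 3 kb. The Ink4a start is inside K27me3 in all 12 mice, the Arf and Cdkn2b starts straddle the edge, and all mice lie above the line at the other 6 genes.

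K27me3 length was compared between genotypes over each gene and 50 kb on either side, to ask whether loss of the EZH2 SET domain changed the mark at this locus. At *Cdkn2a* it was 64.1, 81.2 and 65.0 kb in WT, 63.4, 79.6 and 86.9 kb in EZ, 80.0, 75.1 and 76.1 kb in KR, and 84.4, 84.0 and 71.8 kb in KE. The means were 70.1 ± 9.59, 76.6 ± 12.03, 77.1 ± 2.60 and 80.0 ± 7.16 kb (SD, n = 3 each). The lengths overlapped between EZ and WT and between KE and KR. At *Cdkn2b* it was 40.7, 67.9 and 49.9 kb in WT, 45.4, 53.1 and 59.0 kb in EZ, 51.2, 45.0 and 53.7 kb in KR, and 65.8, 54.4 and 46.1 kb in KE. The means were 52.8 ± 13.9, 52.5 ± 6.82, 49.97 ± 4.51 and 55.4 ± 9.88 kb (SD, n = 3 each), and WT held both the shortest and the longest value, the longest in WT replicate 2. The windows of the 2 genes share much of the same K27me3, so they are not independent.

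The Ezh2 SET deletion (EZ and KE against WT and KR) did not pass the exact permutation test at either gene. Labels were exchanged between EZ and WT and between KE and KR, so the allele shared by KR and KE does not enter the difference. The K27me3 length at *Cdkn2a* was 4.72 kb greater with the deletion (exact permutation p = 0.345, two-sided), with a 95% interval for a constant shift of -5.73 to 15.4 kb. At *Cdkn2b* the difference was 2.57 kb (exact permutation p = 0.635, interval -9.61 to 14.1 kb). These intervals leave room for a change of several kb in either direction. The *Cdkn2a* value moved with the setting: it ranged from 2.16 to 8.04 kb with 1 mouse left out (lowest without EZ replicate 3, highest without EZ replicate 1), and was 0.482 kb with 10 kb on either side (exact permutation p = 0.64), 1.84 kb with equal numbers of peaks (exact permutation p = 0.705) and 1.49 kb with stricter peak widths (exact permutation p = 0.815). The *Cdkn2b* difference turned sign without WT replicate 1 (-0.464 kb, exact permutation p = 0.935). Without WT replicate 2, which stood apart, the deletion differences were 7.49 kb at *Cdkn2a* (exact permutation p = 0.195) and 6.35 kb at *Cdkn2b* (exact permutation p = 0.18). After adjustment over all genes with any K27me3 in the window, every p at these genes was 1.

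Of *Cdkn2a* and *Cdkn2b*, 0 reached an unadjusted exact permutation p of 0.05 for the Ezh2 SET deletion, against 3.29% of all genes tested. The other 6 genes had K27me3 in the window in 3 mice or fewer and are given by mouse further on. Pairs of genotypes have 20 arrangements and a smallest p of 0.1, so for K27me3 length at *Cdkn2a* and *Cdkn2b* they are given by overlap alone. The groups overlapped at both genes in EZ against WT and in KE against KR, where 5.52% and 9.45% of all genes did not overlap. Total autosomal K27me3 length, beside these, was 19.8% greater in EZ than WT (exact permutation p = 0.1), or 10.9% greater without EZ replicate 2, which had 225.6 Mb against 181.5 and 182.5 Mb in the other EZ mice. In KE against KR the difference was -23.6% (exact permutation p = 0.2), with 177.6, 217.6 and 223.9 Mb in the KR mice, whose lists have few chromosome X peaks, and 150.1, 186.7 and 136.3 Mb in the KE mice, whose lists have them. Among the mice with chromosome X peaks, the deletion can be compared only between EZ replicates 1 and 3 and WT, where mean K27me3 length was 75.1 against 70.1 kb at *Cdkn2a* and 52.2 against 52.8 kb at *Cdkn2b*, with overlap at both genes. With each mouse's length scaled to its own autosomal K27me3, the differences with the Ezh2 SET deletion were 8.56 kb at *Cdkn2a* (exact permutation p = 0.38) and 4.83 kb at *Cdkn2b* (exact permutation p = 0.59).

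**Figure D3:**
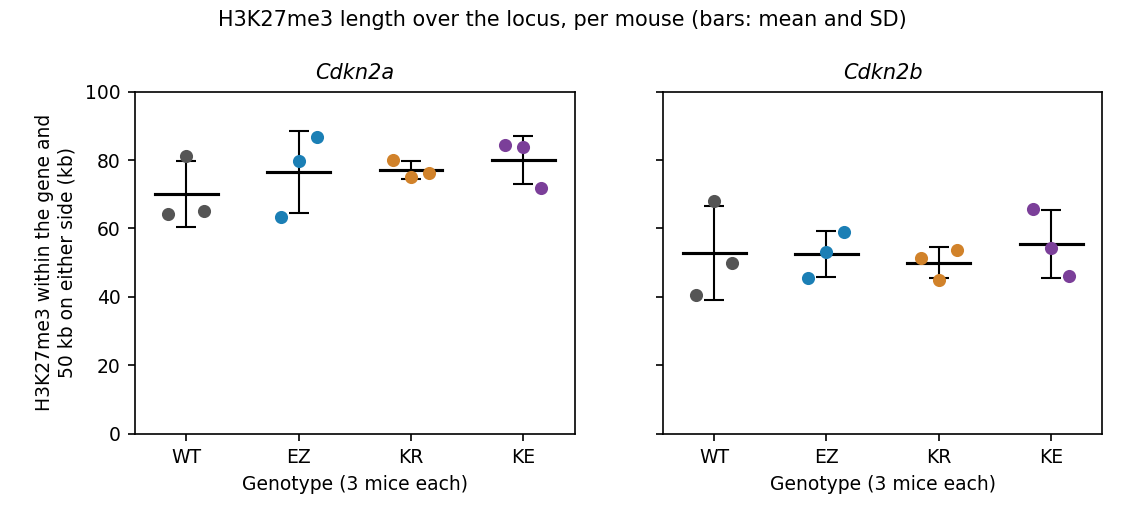
Kilobases of H3K27me3 within Cdkn2a (left) or Cdkn2b (right) and 50 kb on either side, 1 point per mouse, with the mean and SD of 3 mice per genotype. The genotypes overlap at both genes, with Cdkn2a between 63.4 and 86.9 kb and Cdkn2b between 40.7 and 67.9 kb.

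Within 3 kb of the starts alone, K27me3 covered 9162 to 12002 bp at *Cdkn2a*, where 12002 bp is the full length of its windows, and 0 to 6001 bp at *Cdkn2b*, where 6001 bp is the full window. With the Ezh2 SET deletion the covered length was 512 bp greater at *Cdkn2a* (exact permutation p = 0.425) and 1025 bp greater at *Cdkn2b* (exact permutation p = 0.385). Of the 2 genes tested, 0 reached p of 0.05 by the exact permutation test, against 1.87% of all genes. With 1 mouse left out the difference ranged from 52.5 to 764 bp at *Cdkn2a*, lowest without KR replicate 2 (exact permutation p = 0.94). At *Cdkn2b* it ranged from 319 bp without WT replicate 1 (exact permutation p = 0.735) to 1820 bp without WT replicate 2 (exact permutation p = 0.105), and was 82.8 bp with equal numbers of peaks or stricter widths (exact permutation p = 0.945).

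Set against the genome, *Cdkn2a* was among the loci with most K27me3. On average 63.2% of its 120.2 kb window was covered (52.7% to 72.3% over the 12 mice), which placed it at rank 222 of 21143 genes. *Cdkn2b* had 50.3% of its 104.7 kb window covered (38.8% to 64.8%), at rank 465. Ranked by mean K27me3 length, in which longer genes have longer windows, *Cdkn2a* was at 383 and *Cdkn2b* at 866. The median gene had 1.07% covered, and 31.3% of genes had no K27me3 in the window in any mouse. Across the 12 mice, the K27me3 length of *Cdkn2a* followed most closely that of *Tmem30a* (Pearson r = 0.927), *Psmd6* (0.887) and *Pphln1* (0.879), and that of *Cdkn2b* followed *Svop* (0.950), *Twist2* (0.946) and *Usp30* (0.940). These are the highest of 13647 genes compared over the same 12 libraries and are given as a description.

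The other INK4 genes, which encode p18 (*Cdkn2c*) and p19Ink4d (*Cdkn2d*), lacked the domain. At *Cdkn2c* K27me3 lay within 50 kb in 3 mice (11.8 kb in WT replicate 2, 6.27 kb in EZ replicate 3, 5.001 kb in KE replicate 1), and the nearest K27me3 to its downstream start was 36735 to 321906 bp away. At *Cdkn2d* it lay within 50 kb only in WT replicate 2 (10.2 kb). Both *Cdkn2c* starts and the *Cdkn2d* start were inside K4me3 in 12 of 12 mice. The *Cdkn2c* peak was 3821 to 4757 bp wide and took in both of its starts. Near *Cdkn2d* K4me3 also reached *Kri1*, whose start is 3184 bp away, so part of the *Cdkn2d* length belongs to that neighbour's window.

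*Cdkn1a* and *Cdkn1b* had no K27me3 within 50 kb in any of the 12 mice. The K4me3 of *Cdkn1a*, 2640 to 3311 bp wide, enclosed the start at chr17:29093769 in 12 of 12 mice. It did not enclose the upstream start at chr17:29090976 (0 of 12 mice, 2190 to 2527 bp away) or the downstream start at chr17:29097900 (0 of 12 mice, 1373 to 1955 bp away). The upstream start is the one with 2 CpG printed above. *Cdkn1b* had the longest K4me3 of the 8 genes, at 4980 to 5430 bp within 3 kb of its starts, and 11 of the 12 mice lay between 4980 and 5161 bp. This length is the sum of 2 peaks in every mouse: the peak over the start, of which 4467 to 4790 bp fell within the window, and the end of a separate upstream peak, of which 294 to 640 bp did. The peak over the start ran past the 3 kb limit and was 5201 to 5791 bp wide in full. The nearest K27me3 was 117082 to 698439 bp from *Cdkn1b* and 138534 to 2243965 bp from the marked start of *Cdkn1a*.

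*Cdkn1c*, an imprinted gene whose maternal copy is active, was the member with least K4me3. It had a peak within 3 kb of a start in 6 of 12 mice: WT replicates 1 and 3, KR replicates 1 and 3, and KE replicates 2 and 3, and in 0 of 3 EZ mice. KR replicate 3 had 1348 bp in 2 peaks and the other 5 had 501 bp, the narrowest width in the K4me3 lists. With peaks of the narrowest width, the calls sit at the limit of what the lists record, and the genotypes overlapped. Its K27me3 length was 14.7 kb in WT replicate 2 and 0 in the other 11 mice. Of 12 imprinted neighbours listed for its domain, 11 were found in the annotation, 6 had K4me3 in all 12 mice (among them *Phlda2*, *Kcnq1* and *H19*), and 0 had K27me3 in all 3 mice of any genotype. Over all genes the shares were 57.5% for K4me3 and, by genotype, 4.32% to 8.83% for K27me3. The counts are a description, and their difference from these shares was not tested.

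*Trp53* carried K4me3 at its main start in 12 of 12 mice, in a peak 4114 to 4757 bp wide. That peak is shared with *Wrap53*, which starts 104 bp away on the other strand, so the 2 genes cannot be told apart in it. The start of the short transcript at chr11:69588695 had no K4me3 within 3 kb in any mouse, the nearest being 6055 to 6371 bp away. K27me3 lay within 50 kb of *Trp53* in 2 mice, with 19.6 kb in WT replicate 2 and 5.001 kb in KR replicate 1, and these are the mice whose 2 marks overlapped most. Values other than 0 at *Cdkn2d*, *Cdkn1c* and *Trp53* thus came from those 2 libraries, and without them K27me3 was 0 kb at the 3 genes.

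K4me3 length near the starts fell from *Cdkn1b* (median 5053 bp of 12 mice) and *Trp53* (4560.5 bp) through *Cdkn2c* (4175 bp), *Cdkn1a* (2846.5 bp) and *Cdkn2d* (2520.5 bp) to *Cdkn2b* (1707.5 bp), *Cdkn2a* (1354.5 bp) and *Cdkn1c* (250.5 bp). Neighbours in this order did not overlap over the 12 mice at *Cdkn1b* and *Trp53*, at *Cdkn2c* and *Cdkn1a*, and at *Cdkn2d* and *Cdkn2b*. The other neighbours overlapped. Without its upstream peak the *Cdkn1b* length in the window also overlapped that of *Trp53* (4114 to 4757 bp). The 3 genes with least K4me3 therefore include both genes with K27me3. Genes with several starts have a longer window, and at *Cdkn2a* the whole length came from the Arf peak.

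**Figure D4:**
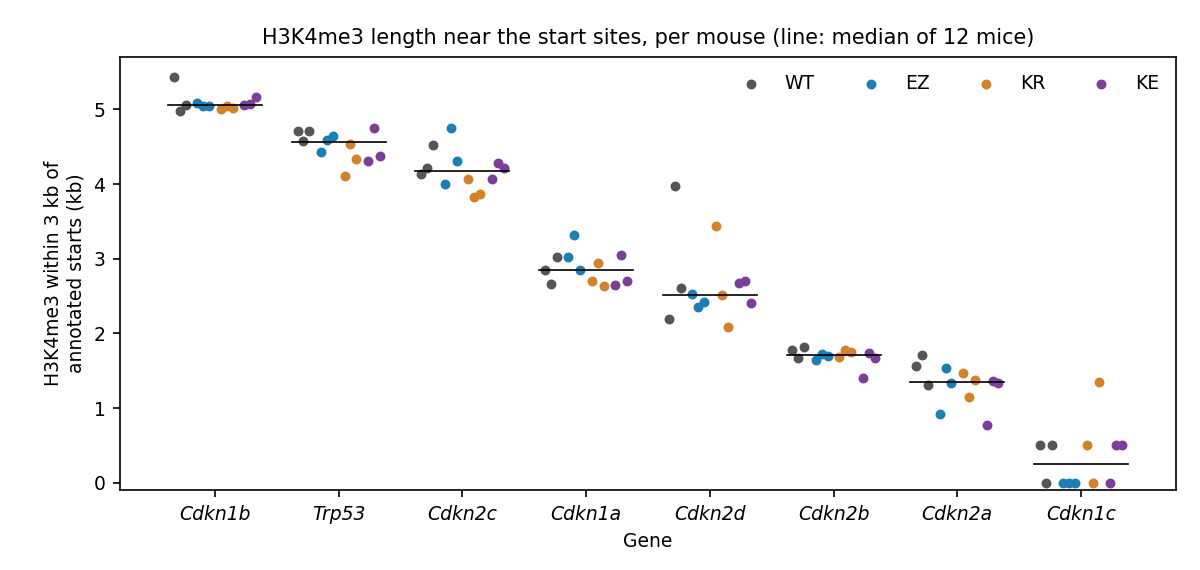
Kilobases of H3K4me3 within 3 kb of the annotated starts of each gene, 1 point per mouse coloured by genotype, with a line at the median of 12 mice. The genes fall from 4980 to 5430 bp at Cdkn1b to 0 to 1348 bp at Cdkn1c, and the 3 KE mice lie above the 3 KR mice at Cdkn2c and, with its 2 peaks summed, at Cdkn1b.

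K4me3 at these genes did not pass the test for the Ezh2 SET deletion. Of the 8 genes, 0 reached an exact permutation p of 0.05, against 7.59% of all genes tested, and the smallest adjusted p over all genes was 0.497. The median difference of the 8 genes was -54.0 bp, against 60.2 bp over all genes tested. At *Cdkn2b* K4me3 was 1778, 1673 and 1819 bp in WT, 1648, 1720 and 1695 bp in EZ, 1684, 1773 and 1756 bp in KR, and 1407, 1737 and 1677 bp in KE. With the Ezh2 SET deletion its mean was 1647 against 1747 bp (exact permutation p = 0.075, adjusted p = 0.693). This difference reached the threshold when lengths were scaled to the library's autosomal K4me3 (-228 bp, exact permutation p = 0.005), without WT replicate 2 (-121 bp, exact permutation p = 0.02) and without KE replicate 2 (-132 bp, exact permutation p = 0.03). Without KE replicate 1, whose 1407 bp was the shortest, it was -49.8 bp (exact permutation p = 0.14). At *Cdkn2a*, whose K4me3 is that of Arf, the mean was 1214 against 1432 bp with and without the deletion (exact permutation p = 0.175).

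Between KE and KR the K4me3 lengths of *Cdkn2c* and *Cdkn1b* did not overlap, where 8.26% of all genes did not. At *Cdkn2c* they were 4064, 3821 and 3871 bp in KR and 4073, 4287 and 4221 bp in KE, with means of 3919 and 4194 bp. At *Cdkn1b* they were 5001, 5042 and 5017 bp in KR and 5060, 5069 and 5161 bp in KE, with means of 5020 and 5097 bp. In these lengths all 3 KE mice thus lay above all 3 KR mice at both genes, at the smallest p that 20 arrangements allow (exact permutation p = 0.1, adjusted p = 1). At *Cdkn1b* this held only for the sum of the 2 peaks. The peak over the start gave 4640, 4748 and 4614 bp of it in KR and 4661, 4690 and 4761 bp in KE, which overlapped, and the upstream peak gave 361, 294 and 403 bp in KR and 399, 379 and 400 bp in KE, which overlapped too. The full width of the peak over the start was 5258, 5671 and 5201 bp in KR and 5358, 5703 and 5791 bp in KE, again with overlap. The gene *Cdkn2c* held 4131, 4219 and 4524 bp in WT and 4007, 4757 and 4303 bp in EZ, which overlapped. Over all 12 mice the difference with the Ezh2 SET deletion was 170 bp at *Cdkn2c* (exact permutation p = 0.225, interval -141 to 468 bp) and -8.17 bp at *Cdkn1b* (exact permutation p = 0.99, interval -174 to 107 bp). Without WT replicate 1, whose *Cdkn1b* length of 5430 bp was the longest, the *Cdkn1b* difference was 60.4 bp (exact permutation p = 0.02), and over all 12 mice it was 17.3 bp for the peak over the start within the window (exact permutation p = 0.77) and 121 bp for its full width (exact permutation p = 0.36). At *Trp53* it was 20.3 bp (exact permutation p = 0.895, interval -194 to 265 bp). In EZ against WT the groups overlapped at all 8 genes, where 11.3% of all genes did not.

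The 2 marks were also counted in 3 lists of related genes: pocket proteins and E2F, cyclins and kinases, and the p53 pathway. Over all genes, 57.5% had K4me3 near a start in all 12 mice, and 4.32% to 8.83% had K27me3 in all 3 mice of a genotype. Differences of the lists from these shares were not tested. All 11 pocket protein and E2F genes, such as *Rb1* and *E2f1*, had K4me3 near a start in all 12 mice, and 0 had K27me3 in all 3 mice of any genotype. Of 13 cyclin and kinase genes, 12 had K4me3 in all 12 mice, including *Cdk4*, *Cdk6* and *Ccnd1*. The other, *Ccna1*, a cyclin known from the germ line, had K4me3 in 2 mice and K27me3 in 9 (2 WT, 3 EZ, 3 KR, 1 KE). Of 18 genes of the p53 pathway, 17 had K4me3 in all 12 mice, including *Mdm2*, which encodes the ligase that degrades p53. *Pmaip1*, which encodes the pro-apoptotic protein NOXA, had both marks: K4me3 in 12 mice and K27me3 in 9 (1 WT, 2 EZ, 3 KR, 3 KE). Among the genes of these 3 lists 0 had K27me3 near a start in all 12 mice, against 3.25% of all genes. In each list 3 genes had it near a start in at least 1 mouse.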

How the data were processed

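Whole pancreas of 12 mice was profiled by ChIP-Seq for K4me3 and K27me3. Per the labels and the study's methods, the authors passed reads through FastQC, mapped them with Bowtie2 (build mm10), and ran HOMER peak calling in histone mode for every mouse, against local background and its input; versions are not given in the sources used here. The 24 deposited lists give peak positions, and their score column, as the authors deposited it, is 1 throughout and was not used. Inputs are not analysed here, and the further allele of the KR and KE mice and the comparisons that test it are not reported here. The narrowest peaks are 5001 bp for K27me3 and 501 bp for K4me3, and an edge is therefore uncertain.

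Overlapping peaks of a list were merged. Lengths were summed within 3 kb of every annotated start (GENCODE vM21) and over the gene with 50 kb on either side, for 21143 autosomal genes with an Entrez identifier. Domains join gaps of up to 3 kb. Differences of means were tested by exact two-sided permutation over mice (400 arrangements for the Ezh2 SET deletion within each background, smallest p 0.005; 20 per pair, smallest p 0.1), with Benjamini-Hochberg adjustment over all genes with a value above 0, at a threshold of 0.05. Intervals invert that test. The code was checked on simulated data. Replicates are separate mice per the labels, and the sex of the mice is not in the labels. Alternatives were other windows, flanks, peak widths, equal peak numbers, scaling to autosomal length, a replicate block and each mouse left out. Ranks by percent of the window covered, the separate *Cdkn1b* peaks and values among mice with chromosome X peaks were chosen after seeing the data.

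All 8 genes are named. The genes named from the pathway lists are those with K27me3 near a start in all 3 mice of a genotype, further genes are named as examples, and marker lists are given as counts. The genes and lists were chosen with earlier results of these data known. Computation used Python 3.11.15 with pandas 2.3.3, numpy 2.4.6 and, for the plots, matplotlib 3.10.9.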

Additional observations from a re-analysis of the deposited data

Results flagged for a closer look

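K4me3 within 3 kb of the *Cdkn1b* starts gave differences of opposite sign in EZ against WT and in KE against KR. Every EZ mouse lay below the mean of WT, with a difference of means of -93.0 bp (5063 against 5156 bp, exact permutation p = 0.8, overlapping), and every KE mouse lay above the mean of KR, with a difference of 76.7 bp (5097 against 5020 bp, exact permutation p = 0.1). The difference between these effects was not tested. The sign in EZ against WT rested on WT replicate 1, which had 5430 bp against 4980 and 5057 bp in the other WT mice, and without it EZ was 44.2 bp above WT. Without WT replicate 1 the deletion gave a difference of 60.4 bp over all mice (exact permutation p = 0.02), against -8.17 bp with it (exact permutation p = 0.99). These lengths sum 2 peaks. For the peak over the start alone, within the window, the means were 4634 bp in EZ against 4636 bp in WT and 4704 bp in KE against 4667 bp in KR, with overlap in both pairs.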

How the results depend on the processing

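Of 40 differences at *Cdkn2a* and *Cdkn2b* recomputed under other windows, widths, scalings or pairing, 37 kept their direction and their side of the threshold, though sizes moved. Of 80 counts of genes, 69 were equal, 7 changed by 1 gene and 4 changed by more than 1.5 times. The 7 are counts of genes with K4me3, of 7 in the main setting: 8 in KR with windows of 5 kb, 8 in WT, KR and KE with 2 of 3 mice required, 6 in EZ and KE with stricter widths and 6 in EZ with equal numbers of peaks. The count of genes with K27me3 in all WT mice was 2 with windows of 5 kb, with 2 of 3 mice required or without WT replicate 1 (range 1 to 2 with a mouse left out), and the KE count was 1 with windows of 1 kb. Scaling to autosomal length brought 1 gene (*Cdkn2b*) past the threshold for K4me3 under the Ezh2 SET deletion, at -228 bp. Joining gaps of up to 10 kb lengthened the median *Cdkn2a* domain to 83.6 kb. The deletion difference in K27me3 length at *Cdkn2b*, not past the threshold, turned sign with equal numbers of peaks (-0.76 kb) and with stricter widths (-0.746 kb), and that in *Cdkn1b* K4me3 for the peak over the start alone (17.3 bp within the window, 121 bp in full). The causes were not tested.

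With each mouse left out, K4me3 calls ranged from 0 to 1 gene: *Cdkn1b* without WT replicate 1, and *Cdkn2b* without WT replicate 2 or KE replicate 2. The difference in K27me3 length at *Cdkn2b* ranged from -0.464 to 6.35 kb, with a sign that turned without WT replicate 1 and without KE replicate 1.

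With the replicate number as a block (64 arrangements) the deletion difference in *Cdkn2a* K27me3 length had an exact permutation p of 0.375, and no call changed. Correlations of same-numbered mice ran from -0.635 to 0.583 for K27me3 length, with a median of -0.109, against a median of 0.0288 for differently numbered mice. Whether the numbers mark a pairing or a shared batch cannot be told from these values. The lists hold no read depth or signal: a change in K27me3 level inside a domain that kept its extent would not be seen.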
